A study of Homo sapiens with 6 samples.

Results

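Entry of a cell into the division cycle is decided in G1 by a small set of proteins, and the mRNAs of 10 of them were followed here in SW480 cells. The genes are 2 D cyclins (CCND1, CCND3), 2 E cyclins (CCNE1, CCNE2), the cyclin-dependent kinases CDK4, CDK6 and CDK2, the kinase inhibitors CDKN1A and CDKN1B, and the transcription factor E2F1. They were chosen by name, as the rows of the deposited gene table with these symbols, and each symbol matched 1 of the 20289 rows. All 10 passed the filter on low counts, in a table of 12920 tested genes.

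SW480 is a cell line from a human colon adenocarcinoma. The group MUCP1-FLAG comprised 3 libraries of cells labelled as overexpressing the microprotein MUCP1 with a FLAG tag, and the control, LV-NC, comprised 3 libraries of cells labelled WT and LV-NC. Both were grown in L-15 medium with 10% serum. The sources used here give neither the promoter that drives the tagged protein nor whether the cells were pools or clones. The labels mark the 3 libraries of each group as biological replicates, without saying what was replicated.

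D cyclins bind CDK4 and CDK6, and E cyclins bind CDK2. These kinases phosphorylate the retinoblastoma protein, which then releases E2F factors that switch on the genes of S phase, among them CCNE1, CCNE2 and E2F1 itself. CDKN1A, known as p21, inhibits the cyclin-kinase pairs, and CDKN1B, known as p27, is its close relative. In colon carcinoma cells CCND1 is known as a gene that responds to Wnt and to mitogen signalling. Much of the control of these proteins acts on their stability and binding, which mRNA levels do not show.

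Library totals ran from 17333329 to 23282604 counts in MUCP1-FLAG and from 18867369 to 21534908 in LV-NC. LV-NC replicate 3 stood apart from its group, with a chi-square per degree of freedom of 8.22 against replicate 1 and 4.84 against replicate 2, whereas the other pairs within a group had 2.58 to 4.28; results that rest on it are given with and without it. The overexpression was not checked, because no row carries the name MUCP1. The 11 colon epithelial markers summed to 6320.1 to 6485 CPM (library-size scaled counts, with the TMM factors of edgeR) in MUCP1-FLAG and 5915 to 6515.0 CPM in LV-NC, mostly from the keratins KRT8 and KRT18; CDX1 was at 0 in all libraries, and KRT20, LGR5 and CEACAM5 had at most 0.139 CPM in any library. CDH1, E-cadherin, had 14.7, 15.1 and 14.9 CPM in MUCP1-FLAG, against 30.9, 31.9 and 30.7 CPM in LV-NC (log2 fold change −1.06 ± 0.08, edgeR adjusted p 3.26e-09). The epithelial adhesion gene EPCAM and the brush border gene VIL1 were lower as well, with log2 fold changes of −0.33 ± 0.05 (edgeR adjusted p 3.51e-05) and −0.40 ± 0.10 (0.00731). The other tested epithelial markers, KRT8, KRT18, CDX2 and ASCL2, had log2 fold changes of 0.028, 0.125, −0.027 and 0.433. Their edgeR adjusted p were 0.735, 0.0644, 0.878 and 0.17. Fibroblast markers summed to at most 1.30 CPM in any library, with COL1A2, COL3A1 and DCN at 0, and endothelial markers to at most 4.17 CPM, with PECAM1 and CDH5 at 0. Blood markers summed to 7.33 to 9.04 CPM in MUCP1-FLAG and 12.5 to 13.2 CPM in LV-NC, nearly all from CD68, with PTPRC at 0; their part in the results was not tested.

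Of the 10 genes, CCND3, CDK2 and CDK4 were higher in MUCP1-FLAG than in LV-NC cells, by 24.3%, 15.8% and 12.8%, and none was lower. CDKN1B and CCNE2 had similar fold changes, 1.14 and 1.13, but did not pass the test. The D cyclin CCND1, the inhibitor CDKN1A and E2F1 had fold changes of 1.03, 0.941 and 1.03 and did not pass it either. A gene was called at an adjusted p under 0.05 in the quasi-likelihood test of edgeR, with Benjamini-Hochberg adjustment over all tested genes; of these, 8.35% were called higher and 7.71% lower, beside 3 and 0 of the 10 genes. At an unadjusted p under 0.05, 5 of the 10 were higher and 0 lower, beside 14.7% of all tested genes in each direction. DESeq2 called 3 of the 10 higher and 0 lower, beside 913 and 827 of all 12920 tested genes. With limma on log2(FPKM + 1) 2 and 0 of the 10 were called, beside 514 and 544 of all tested genes. The median log2 fold change of the 10 was 0.11, beside −0.004 over all tested genes. Their log2 fold changes ran from −0.10 to 0.31, inside the range of −2.89 to 2.74 of all tested genes.

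**Figure D1:**
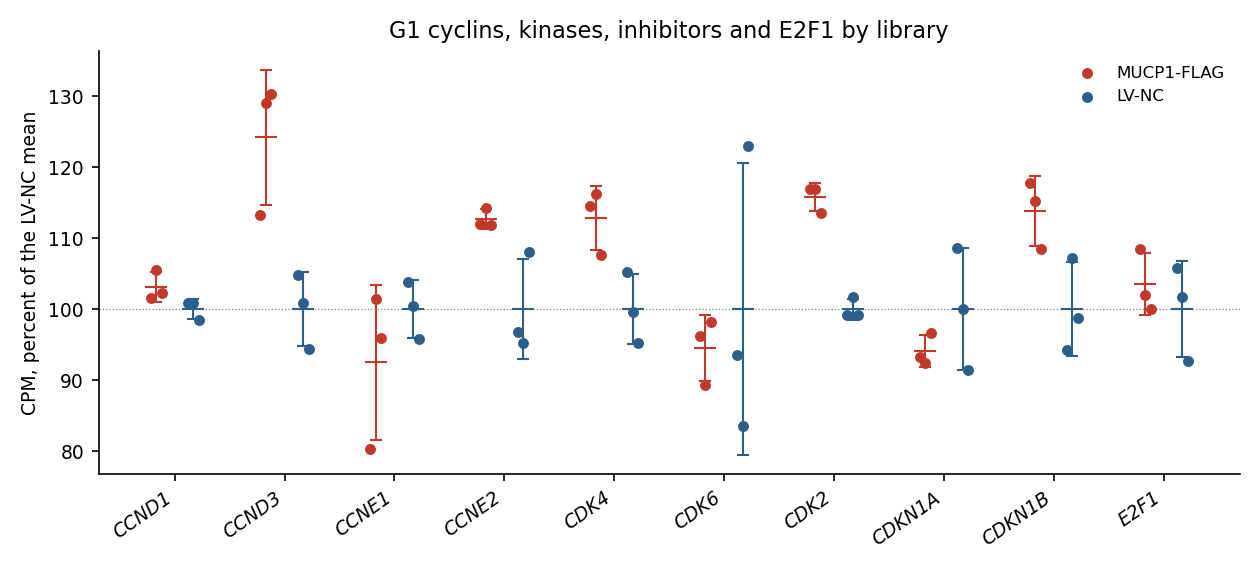
Scaled counts (CPM) of each gene in each library as a percent of the LV-NC mean of that gene; points are libraries, and the dash and bar are the mean and SD of the 3 libraries of a group. The MUCP1-FLAG points of CCND3, CDK2 and CDK4 lie above all LV-NC points, and 1 LV-NC point of CDK6 lies far above the other LV-NC points.

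The p-values rest on the spread between the libraries of a group, moderated over all tested genes. Whether that covers spread between independently made lines cannot be told, since the labels do not say what was replicated. In bulk RNA, more cells in a phase of the cycle and more RNA per cell cannot be told apart. The CPM values of the groups did not overlap for 6 of the 10 genes, beside 33.1% of all tested genes. In the deposited FPKM values, which also divide by gene length, they did not overlap for 4, namely CCND3, CDK2, CDK4 and CDKN1B, beside 29.8% of all tested genes.

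CCND1 was by far the most abundant of the D cyclins, and its level was nearly the same in both groups. CCND1 (ENSG00000110092) lies on chromosome 11 at 69641087 to 69654474, + strand, on GRCh38. It had 1921, 1993 and 1934 CPM in the MUCP1-FLAG libraries, against 1906, 1906 and 1860 CPM in the LV-NC libraries. The lowest MUCP1-FLAG library was above the highest LV-NC library by a narrow margin in CPM, while in FPKM the groups overlapped. LTO1 on the opposite strand shares 10.3% of its exon bases, with its own log2 value at 0.06 ± 0.07 (edgeR adjusted p 0.649). The log2 fold change was 0.04 ± 0.04 (± SE, n = 3 per group; edgeR adjusted p 0.527), with a 95% interval of −0.04 to 0.13, that is, 0.97-fold to 1.10-fold.

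CCND3, a D cyclin best known for its role in lymphocytes, was higher in every MUCP1-FLAG library than in any LV-NC library. CCND3 (ENSG00000112576, chromosome 6, 41934933 to 42050357, − strand) had 55.1, 62.8 and 63.3 CPM in MUCP1-FLAG, against 50.9, 49.0 and 45.9 CPM in LV-NC. The log2 fold change was 0.31 ± 0.07 (edgeR adjusted p 0.00225, n = 3 per group), with a 95% interval of 1.13-fold to 1.37-fold. The remaining D cyclin, CCND2, which was not among the 10 genes, was higher too: 33.5, 39.2 and 41.6 CPM in MUCP1-FLAG, against 30.4, 28.9 and 27.7 CPM in LV-NC (log2 fold change 0.40 ± 0.08, edgeR adjusted p 0.00151). The call of CCND2 was lost with limma on log2(FPKM + 1), at an adjusted p of 0.0684.

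Per length, CCND1 made up 93.0%, 92.5% and 92.2% of the summed FPKM of the 3 D cyclins in the MUCP1-FLAG libraries, and 93.5%, 93.8% and 93.9% in the LV-NC libraries. The share of CCND3 was 5.93%, 6.34% and 6.55% in MUCP1-FLAG, against 5.50%, 5.31% and 5.17% in LV-NC. The sum itself ran from 485 to 502 FPKM in MUCP1-FLAG and from 473 to 483 FPKM in LV-NC. The D cyclin mRNA pool was CCND1 for the most part in all 6 libraries, with a slightly larger share of CCND3 in each MUCP1-FLAG library.

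**Figure D2:**
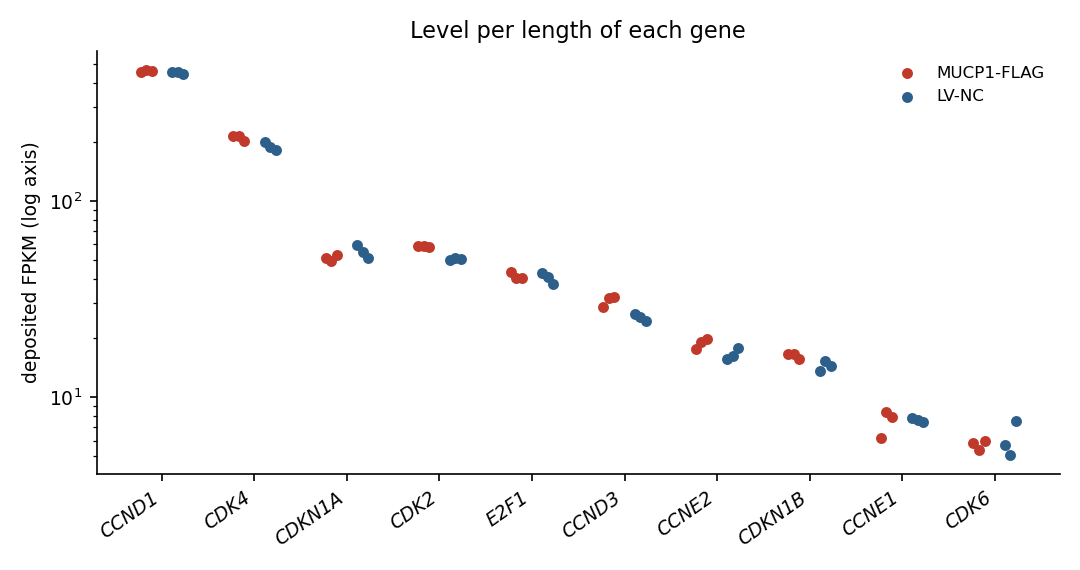
Deposited FPKM of the 10 genes on a log axis, in order of the LV-NC mean; each point is a library. CCND1 and CDK4 lie above the other genes in all 6 libraries, and CCNE1 and CDK6 lie lowest.

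Of the kinases that D cyclins bind, CDK4 was higher in MUCP1-FLAG cells. CDK4 (ENSG00000135446, chromosome 12, 57747727 to 57756013, − strand) had 282, 286 and 265 CPM in MUCP1-FLAG, against 259, 245 and 235 CPM in LV-NC. The lowest MUCP1-FLAG value lay just above the highest LV-NC value, so the groups did not overlap. Its log2 fold change was 0.17 ± 0.05 (edgeR adjusted p 0.0173, n = 3 per group), or 1.05-fold to 1.21-fold as a 95% interval. This call did not hold under 5 of 14 alternatives: the adjusted p was 0.0779 without MUCP1-FLAG replicate 1, 0.0998 without MUCP1-FLAG replicate 2, 0.0782 without LV-NC replicate 2, 0.0768 with limma on log2(FPKM + 1) and 0.0749 with limma on log2(FPKM + 0.1). In the annotation 43.2% of the exon bases of CDK4 are shared with TSPAN31 on the opposite strand. Such shares are taken over all annotated exons, 3168 bases for CDK4, whereas its counts and FPKM imply a length of 1311 bases. For CCNE2, given below, these lengths are 4397 and 2463.5 bases. How reads from shared bases were assigned was not tested, since no strand setting is stated for the counting; TSPAN31 itself had 19.4, 17.8 and 19.6 CPM in MUCP1-FLAG, against 22.7, 23.5 and 22.8 CPM in LV-NC (log2 fold change −0.29 ± 0.08, edgeR adjusted p 0.0164).

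The promoter of CDK4 is shown because the E-box CACGTG, the letters that MYC and its partner MAX bind, occurs in it 3 times. The 250 bases before the RefSeq start, on GRCh38.p14 at chr12:57752311-57752560, − strand, are given in the direction of transcription with the 3 E-boxes in capitals.
CDK4: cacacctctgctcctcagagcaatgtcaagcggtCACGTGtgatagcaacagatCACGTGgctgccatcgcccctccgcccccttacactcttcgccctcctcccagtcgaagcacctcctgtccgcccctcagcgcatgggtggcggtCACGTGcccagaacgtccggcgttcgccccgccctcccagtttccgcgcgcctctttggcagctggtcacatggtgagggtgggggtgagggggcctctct
These E-boxes begin 216, 196 and 101 bases before the start. The letters CACGTG, which read the same on both strands, occur in 6.34% of 35116 promoter windows of this length. Among the 10 windows searched for 7 of the 10 genes, none of the other 9 held them. CCND1 and CDK2 had no window, and CCNE2 was left out of the search. MYC, one of the factors that bind such letters, had 445, 456 and 444 CPM in MUCP1-FLAG, against 519, 525 and 483 CPM in LV-NC (edgeR adjusted p 0.0071, log2 fold change −0.18 ± 0.04). A match of letters is a description of the sequence and does not show binding.

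CDK6, the other partner of D cyclins, was low per length and uneven in LV-NC. CDK6 (ENSG00000105810, chromosome 7, 92604921 to 92836594, − strand) had 68.1, 63.2 and 69.5 CPM in MUCP1-FLAG, against 66.2, 59.1 and 87.1 CPM in LV-NC. LV-NC replicate 3 was the highest of all 6 libraries, and the groups overlapped. The log2 fold change was −0.08 ± 0.14 (edgeR adjusted p 0.768, n = 3 per group), and without LV-NC replicate 3 it was 0.10 (adjusted p 0.305). With a 95% interval of 0.744-fold to 1.20-fold, it was the least precisely measured of the 10 genes. The coefficient of variation of its CPM was 4.94% in MUCP1-FLAG and 20.5% in LV-NC, where the medians of all tested genes were 5.22% and 6.80%.

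The E cyclins CCNE2 and CCNE1 had fold changes of 1.13 and 0.930, and neither passed the test. CCNE2 (ENSG00000175305, chromosome 8, 94879770 to 94896678, − strand) had 45.7, 46.7 and 45.7 CPM in MUCP1-FLAG, against 39.5, 38.9 and 44.1 CPM in LV-NC. The groups did not overlap in CPM, but they overlapped in FPKM. Its log2 fold change was 0.17 ± 0.07 (edgeR adjusted p 0.0796, unadjusted p 0.0157, n = 3 per group), and without LV-NC replicate 3 it was 0.23 with an adjusted p of 0.0103. Exons of INTS8 on the opposite strand share 37.0% of its exon bases; INTS8 had 40.0, 39.1 and 37.1 CPM in MUCP1-FLAG and 40.8, 43.1 and 42.6 CPM in LV-NC (log2 fold change −0.12 ± 0.06, edgeR adjusted p 0.216). CCNE1 (ENSG00000105173, chromosome 19, 29811898 to 29824308, + strand) had the fewest reads of the 10 genes, with 9.97, 12.6 and 11.9 CPM in MUCP1-FLAG, against 12.9, 12.5 and 11.9 CPM in LV-NC. One MUCP1-FLAG library was low and the other 2 lay among the LV-NC values, and the log2 fold change was −0.10 ± 0.10 (edgeR adjusted p 0.555). It ran from −0.18 without MUCP1-FLAG replicate 2 to −0.02 without MUCP1-FLAG replicate 1.

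CDK2, the kinase of both E cyclins, was higher in MUCP1-FLAG, with the smallest coefficient of variation among the 3 called genes in each group (1.66% in MUCP1-FLAG and 1.48% in LV-NC). CDK2 (ENSG00000123374, chromosome 12, 55966769 to 55972784, + strand) had 125, 125 and 121 CPM in MUCP1-FLAG, against 106, 109 and 106 CPM in LV-NC. The 3 MUCP1-FLAG libraries lay close together and well above the 3 LV-NC libraries. The log2 fold change was 0.21 ± 0.05 (edgeR adjusted p 0.00495, n = 3 per group; 95% interval 1.08-fold to 1.24-fold). On the opposite strand AC025162.1, an antisense gene, shares 14.5% of the exon bases of CDK2 and PMEL 2.29%; PMEL had at most 1.57 CPM in any library. CDK2 and CCND3 were called under all 14 alternatives, with adjusted p from 0.00171 to 0.031 for CDK2 and from 8e-05 to 0.0296 for CCND3. In the order of FPKM levels CDK2 stood above CDKN1A in MUCP1-FLAG, at 58.7 ± 0.39 and 51.1 ± 1.67 FPKM (SD, n = 3), while in LV-NC the libraries of CDK2 and CDKN1A overlapped, at 50.5 ± 0.48 and 55.1 ± 4.19 FPKM.

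**Figure D3:**
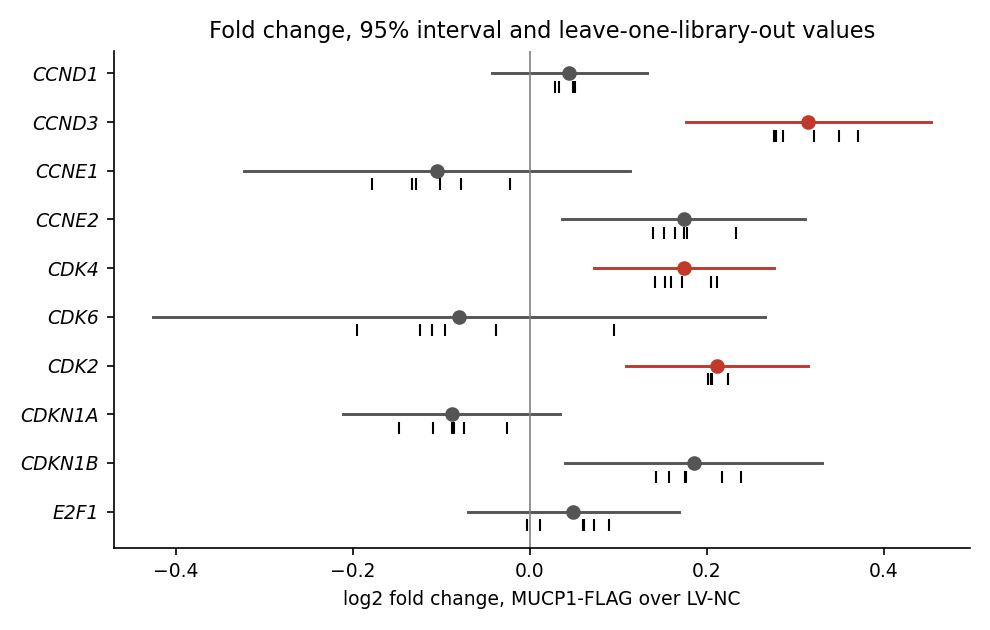
Log2 fold change of MUCP1-FLAG over LV-NC for each gene; the circle and line are the edgeR estimate and its 95% interval, red where the adjusted p was under 0.05, and the ticks are the estimates with each of the 6 libraries left out. The ticks of CDK2 lie between 0.20 and 0.22, and those of CDK6 between −0.20 and 0.10.

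The inhibitors of these kinases, CDKN1A and CDKN1B, had fold changes of 0.941 and 1.14, and neither passed the test. CDKN1A (ENSG00000124762, chromosome 6, 36676460 to 36687339, + strand) had 108, 107 and 112 CPM in MUCP1-FLAG, against 125, 116 and 106 CPM in LV-NC. LV-NC replicate 3 was the lowest of all 6 libraries, so the groups overlapped. The log2 fold change was −0.09 ± 0.06 (edgeR adjusted p 0.343, n = 3 per group), with a 95% interval of 0.864-fold to 1.02-fold. Without LV-NC replicate 3 it was −0.15, with an adjusted p of 0.0382, and without LV-NC replicate 1 it was −0.03, with an adjusted p of 0.795. CDKN1B (ENSG00000111276, chromosome 12, 12715058 to 12722371, + strand) had 41.7, 40.8 and 38.4 CPM in MUCP1-FLAG, against 33.4, 38.0 and 34.97 CPM in LV-NC. All MUCP1-FLAG values lay above all LV-NC values, by a narrow margin, and the log2 fold change was 0.18 ± 0.07 (edgeR adjusted p 0.0775, unadjusted p 0.0151; 95% interval 1.03-fold to 1.26-fold). It stayed above the threshold under all 14 alternatives, with adjusted p from 0.0642 to 0.233.

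The promoter of CDKN1A is shown because GC boxes, the letters bound by SP1 and related KLF factors, lie close before its start. Its 250 bases before the RefSeq start, on GRCh38.p14 at chr6:36678464-36678713, + strand, carry 4 GC boxes, GGGCGG on either strand, which are in capitals.
CDKN1A: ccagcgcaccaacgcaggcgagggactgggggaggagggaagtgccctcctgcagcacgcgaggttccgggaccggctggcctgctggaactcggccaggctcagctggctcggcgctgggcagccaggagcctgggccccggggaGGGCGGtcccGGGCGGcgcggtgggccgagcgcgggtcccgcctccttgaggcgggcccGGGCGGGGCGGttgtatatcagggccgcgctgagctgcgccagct
The 2 GC boxes nearest to the start share 1 base and begin 45 and 40 bases before it. GGGCGG or its reverse complement occurs in 42.6% of all 35116 windows, so it is a common match. KLF4, which is known to raise CDKN1A in colon cells, had 15.9, 17.8 and 16.8 CPM in MUCP1-FLAG, against 25.9, 23.7 and 24.4 CPM in LV-NC (log2 fold change −0.55 ± 0.08, edgeR adjusted p 7.09e-05). KLF6, SP1 and SP3, chosen for their role, had log2 fold changes of −0.146 ± 0.045, 0.077 ± 0.050 and −0.007 ± 0.057. Their edgeR adjusted p were 0.0319, 0.319 and 0.953. The letters do not show binding, and a link of these factors to the CDKN1A value was not tested.

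E2F1, the factor at the end of this pathway, did not differ beyond the spread of the libraries. E2F1 (ENSG00000101412, chromosome 20, 33675683 to 33686404, − strand) had 117, 110 and 108 CPM in MUCP1-FLAG, against 114, 109.9 and 100.2 CPM in LV-NC. The groups overlapped, and the log2 fold change was 0.05 ± 0.06 (edgeR adjusted p 0.621, n = 3 per group), with a 95% interval of 0.953-fold to 1.12-fold. Without LV-NC replicate 3 it was −0.003 (adjusted p 0.982).

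The promoter of E2F1 is shown because it holds letters of the E2F motif, searched as TTTCCCGC, TTTCGCGC, TTTGCCGC and TTTGGCGC on both strands. These 250 bases before the RefSeq start lie on GRCh38.p14 at chr20:33686386-33686635, − strand, and the 2 matches are in capitals.
E2F1: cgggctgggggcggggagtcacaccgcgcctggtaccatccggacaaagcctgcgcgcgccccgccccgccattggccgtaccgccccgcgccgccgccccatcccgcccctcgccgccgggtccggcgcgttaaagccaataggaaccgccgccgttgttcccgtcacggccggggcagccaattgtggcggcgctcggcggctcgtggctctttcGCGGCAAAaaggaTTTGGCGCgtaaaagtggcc
The matches begin 33 and 20 bases before the start, the first of them on the opposite strand. Such letters occur in 2.79% of the 35116 windows, and of the 10 windows searched for 7 genes only that of E2F1 held them. CCNE2 was left out of the search, so whether its promoter holds them was not tested. That no match was found in the other windows says only that these letters are not in those bases. The CHR letters TTTGAA, searched in the same way, were in none of the 10 windows and in 13.3% of all windows.

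Beside the E2F1 value, many genes that E2F factors are known to switch on in S phase were higher. Of a list of 34 such genes, 27 were called higher and 0 lower (median log2 fold change 0.25), where 8.35% and 7.71% of all tested genes were called. At an unadjusted p under 0.05, 32 were higher and 0 lower, beside 14.7% of all tested genes in each direction. DESeq2 gave 27 and 0, beside 913 and 827 of all 12920 tested genes. With limma on log2(FPKM + 1) the number higher was 17, beside 514 of all tested genes. TYMS, thymidylate synthase, had 282, 267 and 263 CPM in MUCP1-FLAG, against 180, 176 and 169 CPM in LV-NC (log2 fold change 0.63 ± 0.05, edgeR adjusted p 4.97e-09). RRM2, a ribonucleotide reductase subunit, and the thymidine kinase TK1 had log2 fold changes of 0.61 ± 0.04 and 0.48 ± 0.07. These 3 were named for having the largest called changes of the list, so it adds nothing that their groups did not overlap in CPM. The same held for 33.1% of all tested genes. CCNE1, CCNE2 and E2F1, which E2F factors also switch on, were not in the list of 34, and none of them was called. Their log2 fold changes were −0.105, 0.174 and 0.049 (edgeR adjusted p 0.555, 0.0796 and 0.621). The lists named here and below were chosen with earlier results of these data known, so they are descriptions of the pathway around the 10 genes.

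Among 18 genes of the retinoblastoma family, the E2F family and the DREAM complex, 5 were called higher and 0 lower. That complex represses cell cycle genes in resting cells. Of all tested genes, 8.35% were called higher and 7.71% lower. The median log2 value of the 18 was 0.07. At an unadjusted p under 0.05 the numbers were 6 and 2, beside 14.7% of all tested genes in each direction. DESeq2 gave 4 and 0, beside 913 and 827 of all 12920 tested genes. The atypical repressor E2F8, itself a gene that E2F1 induces, had 36.4, 35.6 and 33.7 CPM in MUCP1-FLAG, against 22.4, 22.2 and 24.0 CPM in LV-NC (log2 fold change 0.62 ± 0.07, edgeR adjusted p 3.79e-06). MYBL2, a factor that joins the core of that complex in cycling cells, had 0.53 ± 0.06, and E2F2 had 0.37 ± 0.11. The retinoblastoma gene RB1, chosen here for its role and not by its values, had 159, 147 and 153 CPM in MUCP1-FLAG and 129, 148 and 151 CPM in LV-NC, which overlapped (log2 fold change 0.10 ± 0.06, edgeR adjusted p 0.267). The call of E2F2 was lost under 7 of 14 alternatives, DESeq2 among them (adjusted p 0.0759). The number called higher in this list was 2 with limma on log2(FPKM + 1), where 514 of all tested genes were. It was 2 when replicate 2 of LV-NC was left out, and 3 when MUCP1-FLAG replicate 1 or 3 was. Without LV-NC replicate 1, 1 gene was lower.

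Of 32 other regulators of G1 and S phase, 8 were higher and 1 lower, beside 8.35% and 7.71% of all tested genes. At an unadjusted p under 0.05, 14 were higher and 1 lower, beside 14.7% of all tested genes in each direction. The median log2 fold change of the 32 was 0.12, beside −0.004 for all tested genes. CDKN2C, an inhibitor of CDK4 and CDK6 known as p18, had 8.64, 7.40 and 7.23 CPM in MUCP1-FLAG, against 4.54, 4.73 and 6.39 CPM in LV-NC. The groups did not overlap, at 0.57 ± 0.15 on the log2 scale (edgeR adjusted p 0.0102). That call was lost under 4 of 14 alternatives, among them leaving out MUCP1-FLAG replicate 1 (adjusted p 0.0631) or LV-NC replicate 2 (0.0568). Without LV-NC replicate 3 the log2 fold change of CDKN2C was 0.74 (edgeR adjusted p 0.000683). CCNF, cyclin F, whose ubiquitin ligase marks E2F1 for breakdown, had 0.50 ± 0.09, and CDK7, the kinase that activates the other cyclin-dependent kinases, was lower, at −0.18 ± 0.06 (adjusted p 0.0318). Leaving out any 1 of the MUCP1-FLAG libraries, or replicate 2 of LV-NC, ended the call of CDK7 (adjusted p 0.0748 to 0.149). Of the other inhibitors of CDK4 and CDK6, CDKN2A had a log2 fold change of −0.005 ± 0.08, CDKN2B of −0.09 ± 0.12 and CDKN2D of 0.31 ± 0.25, and none of the 3 passed the test. The number higher in this list was 4 with limma on log2(FPKM + 1), beside 514 of all tested genes. Without LV-NC replicate 3 it was 13, beside 1323 of all tested genes.

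**Figure D4:**
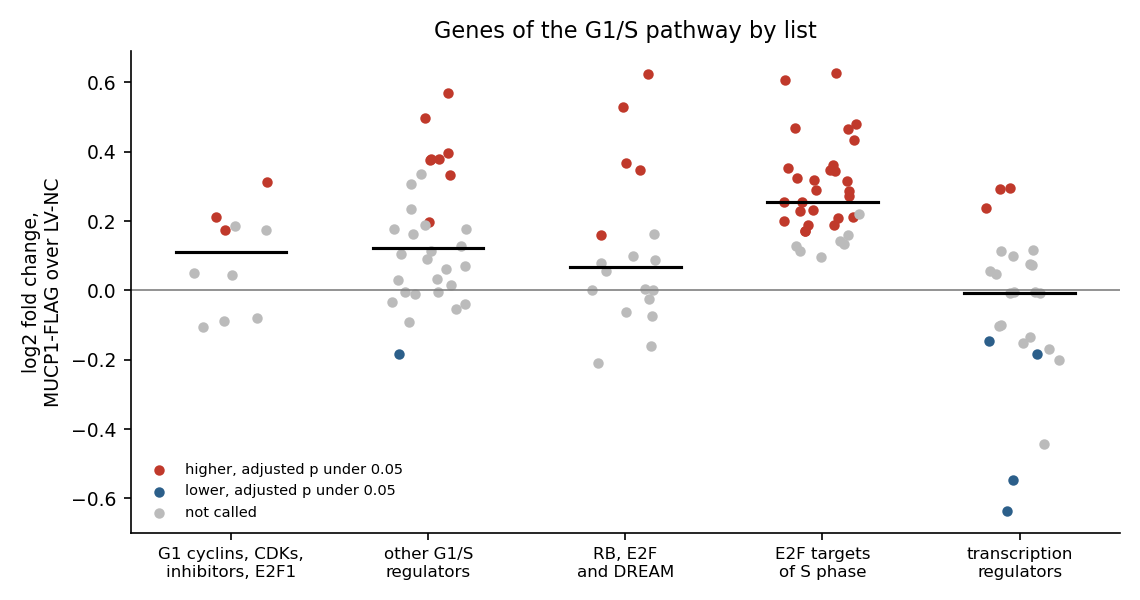
Log2 fold change of MUCP1-FLAG over LV-NC for the 10 genes and for the genes of 4 lists around them; each point is a gene, red or blue where it was called higher or lower, and the bar is the median of the list. Every one of the 34 E2F target genes has a positive value, and the transcription regulators lie on both sides of 0.

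Of 25 transcription factors and cofactors known to act on CDKN1A, CDKN1B, CCND1 or E2F1, 3 were higher and 4 lower. These are 12% and 16%, beside 8.35% and 7.71% of all tested genes. The median log2 value of the 25 was −0.007. CTNNB1, beta-catenin, had 1089, 1044 and 1068 CPM in MUCP1-FLAG, against 904, 880.0 and 929 CPM in LV-NC (log2 fold change 0.24 ± 0.04, edgeR adjusted p 0.000513). Its partner LEF1 had 0.29 ± 0.06 and FOXM1, a factor of late cell cycle genes, 0.29 ± 0.05. EGR1, an early gene of mitogen signalling, had 227, 242 and 249 CPM in MUCP1-FLAG, against 397, 368 and 349 CPM in LV-NC (log2 fold change −0.64 ± 0.05, edgeR adjusted p 1.98e-08), and KLF4 and MYC, given above, were lower as well. The call of MYC was lost without LV-NC replicate 2 (adjusted p 0.0747) or MUCP1-FLAG replicate 3 (0.0519). The number lower was 2 without either of these libraries and 7 without LV-NC replicate 3.

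In the pathway terms of the deposited table all 10 genes belong to the KEGG cell cycle, a list chosen after the data were seen. Without them 109 genes of that term were tested, of which 27 were higher and 3 lower, and the median log2 value was 0.06. These are 24.8% and 2.75%, beside 8.35% and 7.71% of all tested genes. With limma on log2(FPKM + 1) 9 of the 109 were higher, beside 514 of all tested genes. The number higher was 16 when LV-NC replicate 2 was left out, 17 when MUCP1-FLAG replicate 3 was, and 39 without LV-NC replicate 3. The number lower ran from 0 to 5 over all alternatives. The authors' deposited table gave adjusted p under 0.05 for the same 3 of the 10 genes, CCND3 (0.00141), CDK2 (0.00194) and CDK4 (0.0119), with log2 fold changes of 0.28, 0.22 and 0.16. That comparison rests on the same 6 libraries, so it is no separate check. Its share of all genes under 0.05 was not counted here.

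Ratios of related genes within a library do not depend on how libraries are scaled. The FPKM ratio of CCND1 to CCND3 was 15.7, 14.6 and 14.1 in MUCP1-FLAG, against 16.99, 17.7 and 18.2 in LV-NC, and the ratio of CDKN1A to CDKN1B was 3.07, 3.0 and 3.40 in MUCP1-FLAG, against 4.35, 3.60 and 3.55 in LV-NC. In both ratios the groups did not overlap, with lower values in MUCP1-FLAG. Differences of mean log2 ratio, MUCP1-FLAG minus LV-NC, were −0.25 and −0.27. As single libraries were left out they ran from −0.30 to −0.22 for CCND1 over CCND3 and from −0.33 to −0.18 for CDKN1A over CDKN1B, the last without LV-NC replicate 1. The two-sided exact permutation test over 3 against 3 libraries gave p = 0.1 for each, the smallest it can give, and 0.2 after Benjamini-Hochberg adjustment over 4 ratios. The ratio of CCNE1 to CCNE2 was 0.397 ± 0.05 in MUCP1-FLAG and 0.464 ± 0.04 in LV-NC (SD, n = 3 per group; exact p = 0.2), and that of CDK4 to CDK6 was 37.0 ± 3.05 and 31.9 ± 7.02 (exact p = 0.5), and in both the groups overlapped. The log2 difference of CDK4 over CDK6 was 0.24 with all libraries and 0.04 without LV-NC replicate 3. That of CCNE1 over CCNE2 was −0.23, and ran from −0.31 without MUCP1-FLAG replicate 2 to −0.14 without MUCP1-FLAG replicate 1. CDK4 mRNA exceeded CDK6 mRNA per length in each library, by 34.0-fold to 40.1-fold in MUCP1-FLAG and 23.9-fold to 37.0-fold in LV-NC.

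**Figure D5:**
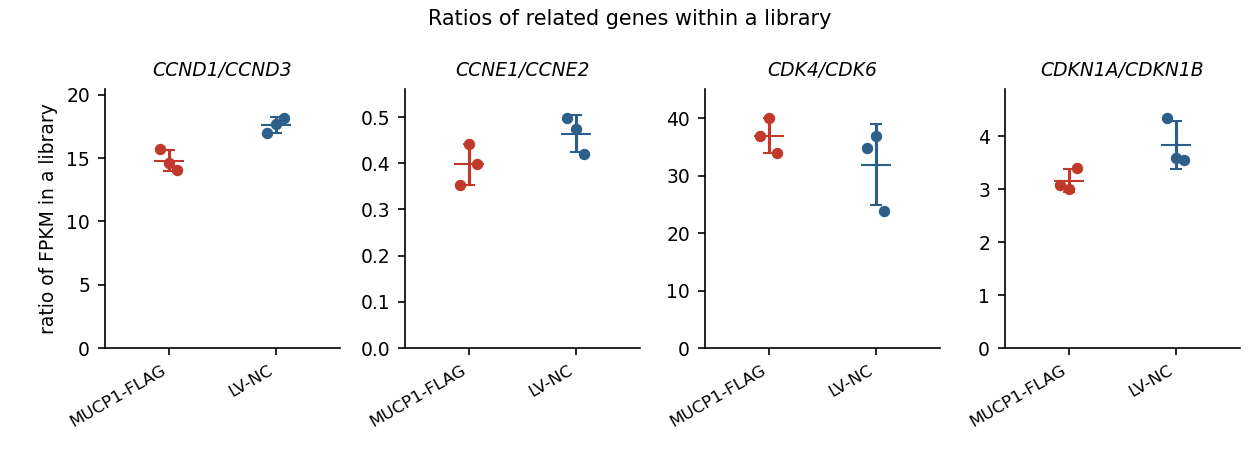
Ratio of the deposited FPKM of related genes in each library; points are libraries, and the dash and bar are the mean and SD of the 3 libraries of a group. The MUCP1-FLAG points of CCND1 over CCND3 and of CDKN1A over CDKN1B lie below all LV-NC points.

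In order of mean FPKM the genes ran CCND1, CDK4, CDK2, CDKN1A, E2F1, CCND3, CCNE2, CDKN1B, CCNE1 and CDK6 in MUCP1-FLAG. The highest, CCND1, had 457 ± 6.74 FPKM in MUCP1-FLAG and 449 ± 3.86 FPKM in LV-NC, and the lowest, CDK6, had 5.72 ± 0.33 and 6.11 ± 1.29 FPKM (SD, n = 3 per group). Neighbours in this order did not overlap between their libraries in MUCP1-FLAG. In LV-NC, where CDKN1A stood before CDK2, the libraries of that pair overlapped, and so did those of CCNE1 and CDK6. The length implied by count and FPKM varied between libraries by a coefficient of variation of 4.46% for CCNE1 and 4.16% for CCNE2, and by at most 1.07% for the other 8 genes, so FPKM values of the E cyclins carry that added spread.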

How the data were processed

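The authors deposited 1 table with whole-number read counts and FPKM per gene for each library, per the file headers, along with their own log2 fold change, p-value and adjusted p-value. Per the submitters' processing notes, the build was GRCh38 and the tools were fastp, HISAT2, featureCounts and DESeq2; their versions, roles and strand setting are not stated. FPKM divides a count by a length for the gene and by library size. In the deposited values that length was not fixed for every gene, as given above for the E cyclins.

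Counts were tested with edgeR 4.0.16 (R 4.3.3): filterByExpr (minimum count 10), TMM, robust quasi-likelihood F test over all 12920 tested genes, Benjamini-Hochberg threshold 0.05. SE is the fold change over the root of F; intervals are 95%. DESeq2 1.42.0 and limma 3.58.1 served as alternatives, with other scalings, filters, a replicate block and each library left out. The members and lists were chosen with earlier results of these data known. All 10 members are named; from each list, the 3 largest called changes each way, plus others said to be chosen by role. Coordinates and exons are from GENCODE 29. Promoters are from RefSeq, GRCh38.p14, searched for 7 of 10 members, with CCND1 and CDK2 lacking a window and CCNE2 left out. Pseudocounts were 1 and 0.1. Results on 1 gene and on the list built around it are not reported here.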

Additional observations from a re-analysis of the deposited data

How the results depend on the processing

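Over 14 alternatives 2 to 4 of the 10 genes were called higher. The 10 genes gave 0 to 1 called lower as single libraries were left out, the 1 being CDKN1A without LV-NC replicate 3. Log2 fold changes kept their sign except that CDK6 ran from −0.195 to 0.095 and E2F1 from −0.003 to 0.09 as libraries were left out, both changing sign without LV-NC replicate 3; the cause was not tested. Over all tested genes, limma on log2(FPKM + 1) called 514 higher and 544 lower and on log2(FPKM + 0.1) 516 and 549, against 1079 and 996 in edgeR; leaving out single libraries gave 639 to 1323 higher and 624 to 1213 lower. Same-numbered libraries deviated together with correlations of 0.0351, 0.0498 and 0.00239, against −0.0461 to 0.00759 for libraries of different numbers. All lay under 0.1, those of replicates 1 and 2 were the highest, and the main test used no pairing. With the replicate block, 1005 genes were higher and 954 lower, and the same 3 members were called. Ratios of counts in place of FPKM, an alternative chosen after seeing the data, moved no ratio difference by more than the spread of its libraries. Scalings moved the median log2 fold change of all genes to −0.02 at most. Counting error limits CCNE1 most, at 172 to 289 counts per library.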
